A study of Mus musculus with 6 samples.

Results

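Basophils and mast cells of bone marrow were followed as 1 lineage in single cells of wild-type mice. The members were marrow cells with at least 500 UMIs (unique molecular identifiers, each standing for 1 captured transcript), at most 10% mitochondrial UMIs, and at least 5 UMIs per 10000 (CP10k) summed over Mcpt8, Prss34, Ms4a2 and Fcer1a. At least 2 of these 4 genes had to be detected, and the neutrophil granule transcripts Camp, Ngp and Ltf had to stay under 100 CP10k together. The rule found 405 members among the 19522 marrow cells that passed the limits on UMIs and mitochondrial share, which is 2.08% (exact binomial 95% interval 1.88 to 2.28%), in a series of 28055 cells. The members numbered 80 in aged marrow after stroke, 32 in young marrow after stroke, 157 in aged marrow at steady state and 136 in young marrow at steady state. The 4 rule genes and the granule limit chose these cells, so their levels are a description and support nothing. At the lower edge, 20 members had between 5 and 6 CP10k of the rule genes, and 25 cells between 4 and 5 CP10k met the other limits but were not members. A further 162 cells past 5 CP10k had only 1 of the 4 genes, and 50 cells past the rule genes were over the granule limit.

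The mice were aged or young, and their marrow was taken 24 h after the middle cerebral artery had been occluded, a model of stroke, or without any treatment, called steady state here. All 4 groups were wild type, and all marrow cells came from fractions enriched for Gr1+ and for c-kit+ cells, so that the enrichment helps to set every share of cells. Each group had 1 droplet 3′ library. Neither the exact age nor how many mice stand behind a library is stated in the labels.

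Basophils and mast cells are granulocytes that carry the high-affinity receptor for immunoglobulin E (IgE) and release histamine, proteases, lipid mediators and cytokines when it is cross-linked. Both arise in marrow from progenitors shared with other granulocytes, under the transcription factor GATA2. Basophils complete their maturation in marrow and leave for blood under interleukin-3, while mast cells leave as progenitors and mature in tissues with KIT signalling. Of the rule genes, Mcpt8 and Prss34 encode serine proteases of basophil granules, Fcer1a encodes the IgE-binding chain of the receptor and Ms4a2 its beta chain.

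The promoters of the 4 rule genes and of Cpa3, the granule carboxypeptidase that basophils and mast cells share, are shown because these genes define the lineage. Each is the stretch of 250 bases before the RefSeq transcription start (RefSeq, GRCm38.p6, written 5′ to 3′ on the gene's strand). Capitals mark GATA-type motifs, which were searched on both strands. The letters searched were AGATAA, the same with another first base (TGATAA), the form of the motif that ends in G (AGATAG) and the form that differs at both ends (TGATAG). The capitals TTATCT are the first of these read on the opposite strand. The windows lie at chr14:56085198-56085447 (minus strand) for Mcpt8, chr17:25298144-25298393 (plus strand) for Prss34, chr19:11623720-11623969 (minus strand) for Ms4a2, chr1:173227230-173227479 (minus strand) for Fcer1a and chr3:20242182-20242431 (minus strand) for Cpa3.
Mcpt8: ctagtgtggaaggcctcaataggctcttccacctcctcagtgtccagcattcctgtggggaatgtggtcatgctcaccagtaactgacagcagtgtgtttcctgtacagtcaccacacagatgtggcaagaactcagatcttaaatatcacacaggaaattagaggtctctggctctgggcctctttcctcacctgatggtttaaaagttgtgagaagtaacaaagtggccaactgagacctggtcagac
Prss34: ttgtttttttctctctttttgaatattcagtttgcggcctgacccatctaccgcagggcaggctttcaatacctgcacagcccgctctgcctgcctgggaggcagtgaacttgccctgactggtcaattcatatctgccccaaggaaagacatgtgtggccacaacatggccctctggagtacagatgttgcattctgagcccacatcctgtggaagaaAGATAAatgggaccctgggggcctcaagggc
Ms4a2: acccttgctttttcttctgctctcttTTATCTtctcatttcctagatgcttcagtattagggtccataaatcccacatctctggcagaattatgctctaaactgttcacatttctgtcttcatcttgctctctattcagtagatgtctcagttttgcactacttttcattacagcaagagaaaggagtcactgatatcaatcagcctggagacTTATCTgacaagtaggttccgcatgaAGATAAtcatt
Fcer1a: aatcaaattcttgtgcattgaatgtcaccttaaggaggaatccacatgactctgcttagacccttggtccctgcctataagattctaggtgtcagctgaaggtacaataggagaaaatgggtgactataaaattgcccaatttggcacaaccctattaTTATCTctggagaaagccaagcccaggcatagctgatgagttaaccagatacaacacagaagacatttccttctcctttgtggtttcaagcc
Cpa3: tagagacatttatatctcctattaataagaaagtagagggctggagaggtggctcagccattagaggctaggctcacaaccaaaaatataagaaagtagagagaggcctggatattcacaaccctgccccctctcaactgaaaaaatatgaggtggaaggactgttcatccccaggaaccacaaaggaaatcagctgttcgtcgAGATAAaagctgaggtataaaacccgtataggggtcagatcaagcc
At least 1 motif was found in 4 of these 5 windows, and in 8718 of 32851 windows of the same length before all RefSeq starts (26.5%). In Prss34 the motif began 31 bases before the start, in Cpa3 46 bases and in Fcer1a 92 bases. Ms4a2 held 3 matches, at 224, 37 and 11 bases, and 6.40% of all windows held 2 or more. Mcpt8 had none, which says only that these letters are not in this window.

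The stroke and steady-state libraries differed in more than treatment. The deposited marrow libraries held between 31015927 and 72743805 UMIs, and the highest mitochondrial share of a deposited cell was 9.95% and 9.90% in aged and young marrow after stroke, against 4.99% and 4.91% at steady state. The median member had 13450 and 7450 UMIs in aged and young marrow after stroke, against 7373 and 6065 UMIs at steady state. The members' summed UMIs were 1070464, 348223, 1338214 and 923729 in aged and young marrow after stroke and aged and young marrow at steady state, so values of young marrow after stroke, with 32 cells, are the least precise. Pseudogene and histone counts also differed by context, as given below. Between 5 and 21 cell barcodes were shared by any pair of libraries, and 0 of them belonged to members of both. A doublet score (Scrublet) passed 0.25 in 3 members of aged and 4 members of young marrow at steady state, and in 0 members after stroke, but only 14.95% and 10.11% of the simulated doublets of aged and young marrow after stroke passed that score, against 46.44% and 44.81% at steady state. Doublets were kept and left out as an alternative. All intervals cover counting error only.

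Members made up a higher share of aged than of young marrow in both contexts. The share was 3.01% (95% interval 2.40 to 3.74%) in aged and 1.41% (0.968 to 1.99%) in young marrow after stroke. At steady state it was 2.46% (2.09 to 2.87%) in aged and 1.66% (1.39 to 1.96%) in young marrow. The intervals of aged and young marrow did not overlap in either context, but the difference between animals and the effect of the enrichment cannot be told apart from age. With the libraries swapped by age within each context, an exact two-sided permutation test gave p = 0.5, the smallest this design allows. The steady-state intervals overlapped with at least 10 CP10k of the rule genes (1.96%, 1.63 to 2.33%, in aged and 1.39%, 1.15 to 1.67%, in young marrow) and with at least 3 of the 4 genes detected (1.82%, 1.503 to 2.17%, in aged and 1.32%, 1.08 to 1.59%, in young marrow). Of the cells under the granule limit, members were 4.05% in aged and 1.72% in young marrow after stroke, against 3.16% in aged and 2.17% in young marrow at steady state. Among members with at least 100 CP10k of Mcpt8 and Prss34 together, the share was 1.996% (1.499 to 2.603%) in aged and 0.706% (0.404 to 1.15%) in young marrow after stroke. At steady state this share was 1.11% (0.869 to 1.40%) in aged and 0.913% (0.719 to 1.14%) in young marrow, so there the intervals overlapped.

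The members' levels of the rule genes differed from library to library. All levels up to the tests of single genes are member UMIs of a gene scaled to a fixed total of all member UMIs (CPM). Mcpt8 stood at 16386 and 9893 CPM in aged and young marrow after stroke, against 12531 and 14154 CPM at steady state. Prss34 stood at 26717 and 16343 CPM after stroke, against 17082 and 19130 CPM at steady state, so both proteases were highest in aged and lowest in young marrow after stroke. Ms4a2 varied less, with 1287 and 1384 CPM after stroke against 1042 and 1175 CPM at steady state. Fcer1a had 1376 and 859 CPM after stroke and 1389 and 1112 CPM at steady state. The median member had 435 and 99.8 CP10k of the 4 genes in aged and young marrow after stroke, and 54.4 and 234 CP10k at steady state. All 4 genes were detected in 247 members, 3 in 76 and 2 in 82. The 33 members with only the receptor chains Ms4a2 and Fcer1a and neither protease included 19 cells of aged marrow at steady state.

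**Figure D1:**
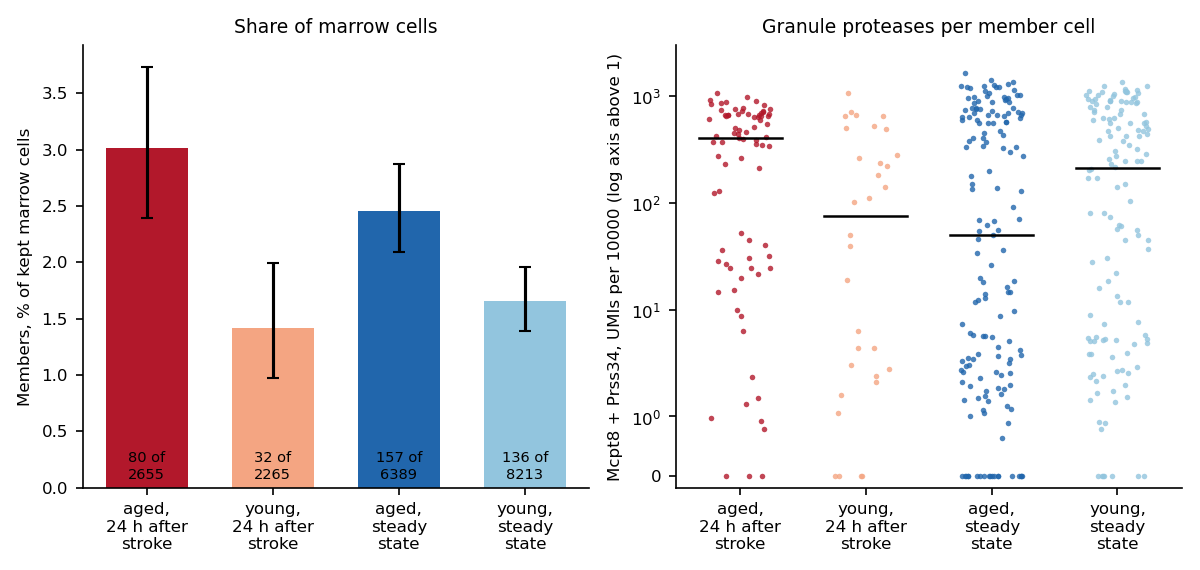
Left, the percentage of marrow cells that are members in each library, with exact 95% binomial intervals; right, Mcpt8 plus Prss34 in each member cell (CP10k, log scale), with the median of each library. The shares are 3.01% and 1.41% in aged and young marrow after stroke and 2.46% and 1.66% at steady state, and in every library single members span the range from 0 to over 500 CP10k.

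Apart from the rule genes, 15 genes stood furthest above the rest of marrow. They are ranked by the mean over the 4 libraries of the log2 ratio of member CPM to rest CPM, with 20 CPM added to each, as a description without a test. Cpa3 led with a mean log2 ratio of 5.69, at 3790 and 1967 CPM in aged and young marrow after stroke and 2456 and 2473 CPM at steady state, against 20.1 to 41.8 CPM in the rest. Csrp3, a LIM-domain protein best known from muscle, followed at 4.31, and Cyp11a1, the enzyme that makes pregnenolone from cholesterol, at 4.06. Rnase12, a member of the ribonuclease A family, had 4.03, and Cd200r3, an activating receptor of basophils and mast cells, 4.02. The transcription factor Gata2 had 3.96. Prg2, the major basic protein of eosinophil granules, had 3.45, from very unequal libraries (387 and 0 CPM in aged and young marrow after stroke, 2098 and 6475 CPM at steady state). The remaining genes of the 15 were Ccl3, a chemokine (3.02), Cd63, a granule membrane protein shown on activated basophils (2.91), Cdh1, E-cadherin (2.79), Itga2b, an integrin of megakaryocytes and early progenitors (2.74), Csf1, the macrophage growth factor (2.64), Alox15, a lipoxygenase (2.62), Gm11697 (2.61) and Stx3, a fusion protein of granule release (2.60).

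**Figure D2:**
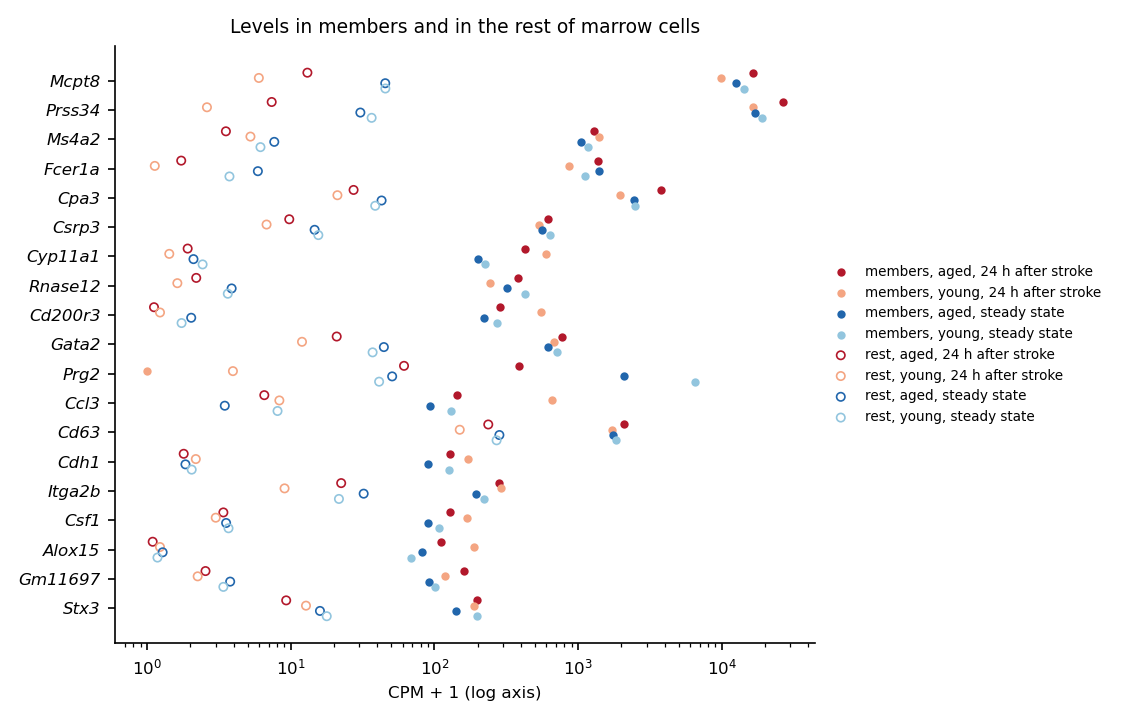
CPM plus 1 (log scale) of the 4 rule genes and the 15 genes that stand furthest above the rest of marrow, in members (filled) and in the rest of the marrow cells (open), by library. Apart from Prg2, which is at 0 CPM in members of young marrow after stroke, each gene is higher in members than in the rest in every library.

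The label was checked against marker lists. The 9 basophil markers that the rule did not use summed to 4367 and 6467 CPM in aged and young marrow after stroke and 3099 and 3256 CPM at steady state. Ifitm1 and Lmo4 made up most of each sum, and neither was limited to members. By library, Lmo4 was detected in 77.9 to 89.3% of marrow cells rich in neutrophil granule transcripts, and Ifitm1 in 13.4 to 53.5%. Cyp11a1 and Cd200r3 of the same list were detected in at most 1.27% of those cells. Of 13 mast cell markers, 4 were in the table (Cma1, Kit, Gzmb and Cpa3), and Cpa3 made up most of their sum of 2036 to 3974 CPM. The other 9, among them the mast cell tryptases and chymases other than Cma1, were not analysed here, so the mast cell side of the label could be checked less fully than the basophil side. Markers of other cells were present as well. The 12 neutrophil granule markers, 3 of which the rule limits, summed to 12871 and 18227 CPM after stroke against 21408 and 16768 CPM at steady state, with Elane, Mpo and Prtn3 of early granules among them. The 10 eosinophil markers summed to 551 and 215 CPM after stroke against 2392 and 7185 CPM at steady state, and the 11 monocyte markers to 316 and 764 CPM after stroke against 819 and 795 CPM at steady state. The 12 B lineage markers stayed between 26.2 and 118 CPM, with Vpreb2, Vpreb3 and Rag1 at 0 in all 4 libraries. Of the 12 megakaryocyte markers, which summed to between 611 and 976 CPM, Gp1bb, Gp6 and Ppbp were at 0 in all 4 libraries. The 10 T and NK cell markers summed to 668 and 376 CPM after stroke against 962.5 and 848 CPM at steady state, most of it Nkg7, a granule gene of cytotoxic cells, with 657 and 365 CPM after stroke against 813 and 799 CPM at steady state. The other 9 markers summed to 11.2 and 11.5 CPM after stroke against 149.5 and 48.7 CPM at steady state, with Trac at 0 in all 4 libraries.

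The members spread along the level of their 2 proteases. In cells grouped by Mcpt8 plus Prss34, 33 members had 0, 97 had more than 0 but under 10 CP10k, 60 had 10 to under 100, 76 had 100 to under 500, and 139 had 500 CP10k or more. Since these groups rest on rule genes of the same cells, their levels are a description, given in that order for the pooled steady-state members. Kit, the stem cell factor receptor of progenitors and mast cells, had 155, 194, 148, 78.1 and 15.3 CPM. Cd34, a surface protein of stem and progenitor cells, had 206, 228, 211, 135 and 35.1 CPM. Sox4, a factor of early progenitors, had 583, 314, 265, 190.0 and 70.2 CPM, so these progenitor genes were lowest where the proteases were highest. Cd200r3 ran the other way, with 0, 49.7, 41.6, 232 and 625 CPM. Cyp11a1 had 15.5, 65.3, 122, 279 and 423 CPM, and Cpa3 had 939, 1050, 1172, 2679 and 4929 CPM. Gata2 had 629, 393, 478, 711 and 1000 CPM and varied less than these. The azurophil granule protease gene Elane was highest in the middle, with 160, 988, 1396, 955 and 143 CPM. Mki67, a marker of dividing cells, was high at both ends, with 588, 353, 234, 281 and 587 CPM.

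After stroke the same order held for Cpa3, with 361, 1130, 1209, 3053 and 5283 CPM over the 5 protease groups. Cyp11a1 had 181, 282, 577, 518 and 513 CPM in members after stroke and Cd200r3 had 105, 107, 306, 388 and 465 CPM. In members with under 100 CP10k of the proteases these 2 genes were therefore higher after stroke than at steady state. Cd200r3 was lower after stroke in the group of 500 CP10k or more, with 465 against 625 CPM. Kit had 120, 214, 41.7, 43.6 and 18.8 CPM after stroke. The lowest protease group held only 7 members after stroke against 26 at steady state, and its values rest on few cells.

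**Figure D3:**
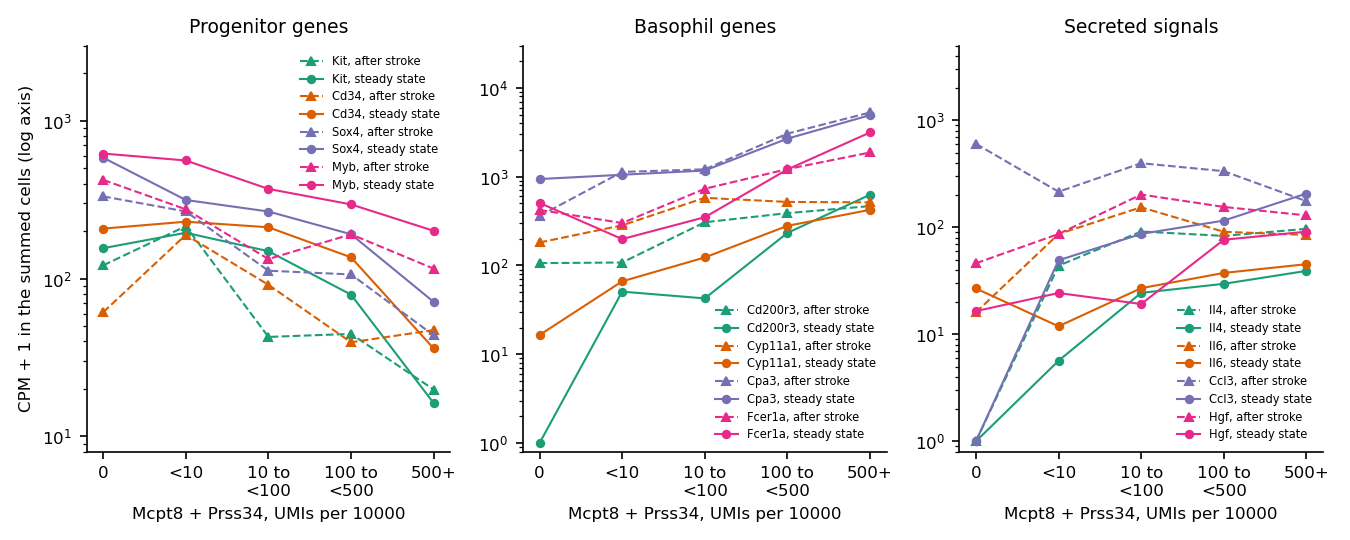
CPM plus 1 (log scale) of 12 genes in members grouped by Mcpt8 plus Prss34 (CP10k), pooled over aged and young marrow after stroke (dashed lines, triangles) and at steady state (solid lines, circles). Kit, Sox4 and Myb are lowest in the members with the most protease, and Cpa3 and Fcer1a are highest there in both contexts.

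Of 9 mast cell protease genes listed, 2 could be analysed, Cma1 and Ctsg, and Ctsg is also a neutrophil granule marker. The mast protease share was therefore read from Cma1 alone, and the size of the mast cell branch cannot be read from it. Cma1, a chymase of mast cell granules, was found in 7 of 405 members, with 54 UMIs, of which 39 came from aged marrow after stroke and 15 from aged marrow at steady state, and 0 from either young library. With each cell thinned to 2000 UMIs, 2 of 394 members had at least 2 UMIs of Cma1 (0.508%, 95% interval 0.0615 to 1.82%), against 0 of 4254 marrow cells rich in neutrophil granule transcripts, which allows a share of up to 0.0705%. The 7 cells with Cma1 had 978 CPM of Gzmb, a granule protease gene of cytotoxic cells and mast cells, against 81.0 CPM in the other 398 members. They had 386 CPM of Kit against 87.2 CPM, and 51.5 CPM of Mitf, a transcription factor of mast cells, against 4.44 CPM. Gzmb was detected in 3 of the 7 cells, Kit in 4 and Mitf in 3, with 4 UMIs of Mitf in all. The basophil protease Mcpt8 was present in all 7 as well, at 17792 CPM against 13724 CPM in the other members. The 7 cells were chosen by their Cma1 counts, so these values are a description of 7 cells.

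Eosinophil granule transcripts came almost entirely from a small set of members. The 12 members with at least 50 CP10k of Prg2, Prg3 and Epx, which encode eosinophil granule proteins, held 9172 of the 9203 Prg2 UMIs of the lineage. They numbered 1 in aged and 0 in young marrow after stroke, and 5 in aged and 6 in young marrow at steady state. These cells had 1021 CPM of Cebpe, a factor of late granulocyte maturation, against 16.4 CPM in the other 393 members. They had 143 CPM of Il5ra, the receptor chain for the eosinophil growth factor interleukin-5, against 1.39 CPM. Mcpt8 stood at 6189 CPM in them against 14003 CPM, and Gata2 at 176 against 707 CPM. A doublet score over 0.25 was found in 1 of the 12.

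A lower share of members was dividing after stroke than at steady state. A member was called dividing when, after thinning to 2000 UMIs, it had at least 3 UMIs over 32 cell cycle genes. The share was 35.1% (26 of 74 members, 95% interval 24.4 to 47.1%) in aged and 22.2% (6 of 27, 8.62 to 42.3%) in young marrow after stroke. It was 68.8% (108 of 157, 60.9 to 75.9%) in aged and 67.65% (92 of 136, 59.1 to 75.4%) in young marrow at steady state. Both libraries after stroke lay below both at steady state with no overlap of the intervals, while aged and young members of 1 context had overlapping intervals. Unthinned, the share was 75% and 46.9% after stroke against 87.3% and 89.7% at steady state. In members with at least 100 CP10k of the proteases, the pooled share was 39.1% (27.1 to 52.1%) after stroke and 75.3% (67.5 to 82.1%) at steady state. The neutrophil-granule cells of the same libraries also had lower shares after stroke, with 30.3% and 27.5% in aged and young marrow, against 50.2% and 56.7% at steady state. Thinning left out 6 and 5 shallow members of aged and young marrow after stroke and 0 at steady state. An exact two-sided permutation test of the 2 stroke libraries against the 2 at steady state gave p = 0.333, the smallest this design allows.

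Differences of single genes were tested on UMI counts summed per library over the members, in 1 additive fit of age and context across 8594 genes (edgeR quasi-likelihood test, Benjamini-Hochberg adjustment over all 8594 genes, threshold 0.05). A gene could pass the filter on low counts through the libraries of a single context. Counts of called genes can therefore include genes kept only where they were high. With 1 library per group the fit has 1 residual degree of freedom. Its p-values therefore set an average difference against how far it varies between contexts or ages and against the spread that the genes share, and no animal-to-animal variation enters them. Levels from here on are TMM-scaled CPM, which correct for composition, and differences are log2 fold changes with their standard error (SE).

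Between ages, 1 gene passed this test. In aged against young marrow 1 gene of 8594 was higher (0.0116%) and 0 were lower, with 253 genes at an unadjusted p under 0.05, while the DESeq2 Wald test called 0 genes, with 32 at an unadjusted p under 0.05. The gene was Gzmb, the granule protease granzyme B. Gzmb had 97.6 CPM in aged and 3.1 CPM in young marrow after stroke, and 168 CPM in aged and 33.5 CPM in young marrow at steady state. It was higher in the aged library of both contexts, with a log2 fold change of 2.66 (SE 0.34, edgeR adjusted p = 0.0318). Few cells carried it. Gzmb was detected in 13 of 80 aged and 1 of 32 young members after stroke, and in 26 of 157 aged and 11 of 136 young members at steady state, and the top 10 cells of a library held 89.8% or more of its UMIs. Of the 33 members with both proteases at 0, 7 had Gzmb, with 105 of the 368 UMIs. The adjusted p ranged from 9.05e-15 to 1 over 11 other settings. The call was lost in 6 of them, among them leaving out the 12 eosinophil-granule cells (adjusted p = 0.4 at a log2 fold change of 2.65) and keeping only members with at least 100 CP10k of the proteases (log2 fold change 1.0, adjusted p = 0.999). Without TMM scaling, the T and NK cell markers other than Nkg7 summed to 11.2 CPM in aged and 11.5 CPM in young marrow after stroke. At steady state they summed to 149.5 CPM in aged and 48.7 CPM in young marrow. Their part in the Gzmb difference was not tested.

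The other genes with the clearest age ratios in both contexts did not pass. Jun, an immediate early transcription factor gene, had 109.6 and 372 CPM in aged and young marrow after stroke and 67.2 and 147 CPM at steady state, with a log2 fold change of -1.44 (SE 0.22, edgeR adjusted p = 0.0954). H2-Aa, a class II histocompatibility chain, had -1.82 (adjusted p = 0.306) and its chaperone Cd74 -1.89 (adjusted p = 0.275). Irf8, a factor of monocyte and dendritic cell fate, had -1.48, Rgs2, a regulator of G-protein signalling, -1.06, and the long noncoding RNA Neat1 -0.72. On the other side stood Atp5l, a subunit of ATP synthase (1.19, adjusted p = 0.44), Elane (1.16, adjusted p = 0.44), Ftl1, ferritin light chain (0.93), and Ppia, cyclophilin A (0.67). Of the lists, 0 of 10 secreted signal genes tested (median log2 fold change -0.36), 0 of 18 immediate early genes (median -0.60), 0 of 32 cell cycle genes (median -0.17) and 0 of 6 class II genes (median -0.75) passed, against a median of -0.00195 over all genes. In a fit of the difference between members and the rest of marrow, 4 genes (0.0465%) were further up and 12 (0.14%) further down with age in members, with Gzmb among those further up (2.49, edgeR adjusted p = 1.13e-06) and H2-Aa (-2.38) and Cd74 (-2.41) among those further down. Single cells carried much of these levels. In young marrow after stroke and at steady state, 1 cell held 98.95% and 71.67% of the H2-Aa UMIs, and 97.79% and 77.18% of those of Cd74. For Irf8, 1 cell held 75% and 86.67% of the UMIs in aged and young marrow after stroke, against 17.43% and 27.42% at steady state.

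More genes passed for stroke. After stroke against steady state 631 genes were higher (7.34%) and 200 lower (2.33%), or 831 in either direction (9.67%), with 2087 genes at an unadjusted p under 0.05, and the DESeq2 Wald test called 225 higher and 21 lower. Many of these genes differed the same way in the rest of marrow, in a fit on those cells of the same libraries. There 507 of the 631 were also called higher and 129 of the 200 called lower. The share of all genes called in that fit is not given here, and the rest holds many more cells. The median log2 fold change in the rest was 1.15 for the 631 genes and -0.59 for the 200, against -0.05 over all genes tested. A fit of the difference between members and the rest called 161 genes further up in members (1.87%) and 200 further down (2.33%). A value called beyond the rest is the log2 difference between the change in members and the change in the rest, from that fit. The rest is a mix of cells whose levels also differed by context. Without TMM scaling, its Cd34 stood at 51.3 and 44.3 CPM in aged and young marrow after stroke, against 138 and 148 CPM at steady state. How far the makeup of the rest sets the values beyond the rest was not tested. The libraries' depth, mitochondrial limit and counting cannot be told apart from stroke. In particular, 116 of the 197 pseudogenes tested were higher (median log2 fold change 1.54, against 1.47 in the rest), as were 23 of 45 histone genes (1.37, against 2.32 in the rest) and 25 of 85 ribosomal protein genes (0.49, against 0.52 in the rest).

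Most of the secreted signal genes tested were higher after stroke. Of 10 tested, 9 were higher and 0 lower, against 7.34% and 2.33% of all genes. The median log2 fold change was 1.78 against -0.02 over all genes, and 5 of the 10 were called beyond the rest. Il4, the cytokine of type 2 immunity for which basophils are a source, had 80.0 and 118 CPM in aged and young marrow after stroke, against 17.1 and 23.3 CPM at steady state. Both stroke libraries lay above both at steady state, with a log2 fold change of 2.27 (SE 0.26, edgeR adjusted p = 0.000143). After thinning, Il4 was found in 23.0% and 11.1% of aged and young members after stroke, against 4.46% and 5.88% at steady state, and in at most 0.102% of neutrophil-granule cells of any library at the same 2000 UMIs. Il6, an inflammatory cytokine, had 87.7 and 146 CPM after stroke against 27.4 and 25.3 CPM at steady state (2.04, SE 0.27, edgeR adjusted p = 0.000425), with 2.37 beyond the rest. After thinning, Il6 was found in 4 of 74 aged (5.41%) and 9 of 27 young members (33.3%) after stroke. At steady state it was found in 12 of 157 aged (7.64%) and 6 of 136 young members (4.41%), so in aged marrow its detection was not higher after stroke. Hgf, hepatocyte growth factor, had 135 and 198 CPM after stroke against 43.9 and 49.7 CPM at steady state (1.79, SE 0.23, adjusted p = 0.000329; 1.85 beyond the rest).

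The chemokines were also higher after stroke, with libraries that differed widely. Ccl3, which draws monocytes and neutrophils, had 167 and 703 CPM in aged and young marrow after stroke, against 85.0 and 121 CPM at steady state. The groups did not overlap, but the young stroke library stood far above the aged one (log2 fold change 1.77, SE 0.30, edgeR adjusted p = 0.00257). Ccl4, a close relative, had 73.5 and 341 CPM after stroke against 26.0 and 26.4 CPM at steady state (2.60, adjusted p = 0.000982). Ccl6 had 630.4 and 1595 CPM after stroke against 245 and 116 CPM at steady state (2.51, adjusted p = 0.00271), with 1.65 beyond the rest. Ccl9 rose by 1.24. Csf1 rose by 0.86 and Tgfb1, an immune-regulating growth factor, by 0.90. After thinning, Csf1 was found in 16.2% and 25.9% of aged and young members after stroke, against 19.1% and 21.3% at steady state. Osm, oncostatin M, was the 1 gene of the list that did not pass (1.39, adjusted p = 0.126). In members with at least 100 CP10k of the proteases, Il4 (1.84), Il6 (1.44), Hgf (1.15), Ccl3 (1.02) and Ccl4 (3.41) were still called, while Ccl6, Ccl9, Csf1 and Tgfb1 were not.

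**Figure D4:**
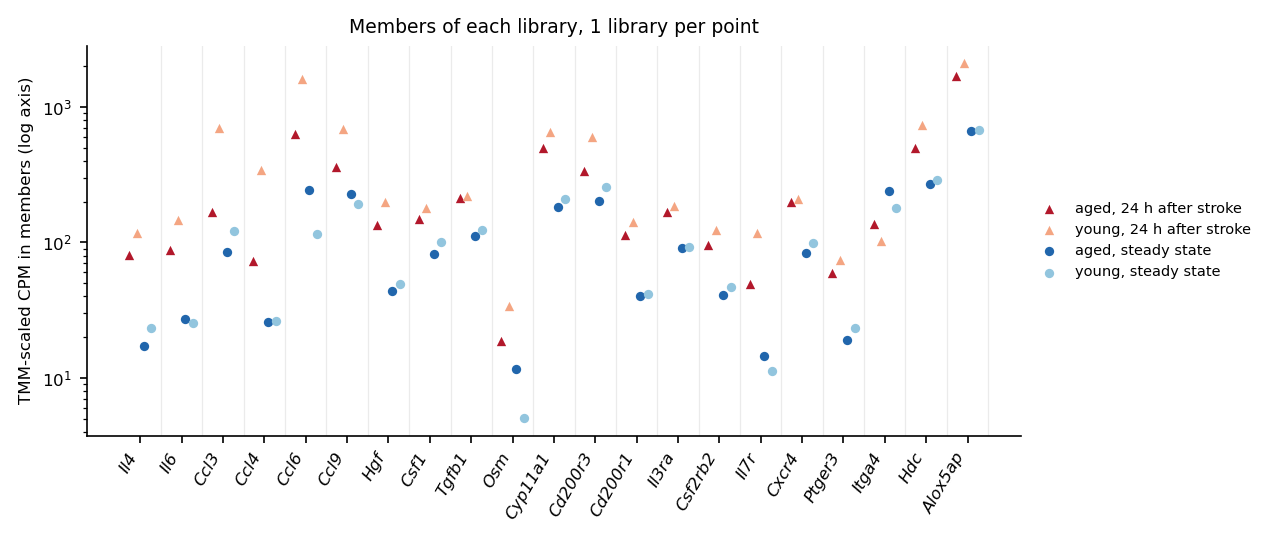
TMM-scaled CPM (log scale) of 21 genes in the members of the 4 libraries, for aged and young marrow after stroke and at steady state. All but Itga4 lie higher in both stroke libraries than in both at steady state, with the widest gap between aged and young marrow after stroke in Ccl3 and Ccl4.

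Among the 9 basophil markers tested that the rule did not use, 5 were higher and 0 lower, against 7.34% and 2.33% of all genes. Their median was 0.93, and 4 were called up and 2 down beyond the rest. Cyp11a1 had 498 and 647 CPM in aged and young marrow after stroke, against 184 and 211 CPM at steady state. It was higher in both stroke libraries, with a log2 fold change of 1.52 (SE 0.20, edgeR adjusted p = 0.000382), and by 0.88 in members with at least 100 CP10k of the proteases (adjusted p = 0.0209). Thinned to 2000 UMIs, Cyp11a1 was found in 60.8% and 74.1% of aged and young members after stroke, against 24.8% and 32.4% at steady state, and in at most 0.324% of neutrophil-granule cells of any library. Cd200r3 had 337 and 595 CPM after stroke against 203 and 254 CPM at steady state (0.97, SE 0.21, adjusted p = 0.0101), but not in the high-protease members (0.33, adjusted p = 0.54). Il3ra, the receptor chain for the basophil growth factor interleukin-3, rose by 0.93. Ifitm1, an interferon-inducible membrane protein, rose by 1.48, less than in the rest of marrow (-1.37 beyond the rest), and was not called in the high-protease members (0.56, adjusted p = 0.312).

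Adhesion and homing genes moved mostly one way. Of 19 tested, 12 were higher and 1 lower (median 0.78), against 7.34% and 2.33% of all genes, with 5 called up beyond the rest. Cxcr4, the receptor that holds leukocytes in marrow through the chemokine CXCL12, had 198 and 211 CPM in aged and young marrow after stroke, against 83.6 and 98.3 CPM at steady state (1.18, SE 0.20, edgeR adjusted p = 0.00264). Cxcr2, a chemokine receptor of neutrophil release, had 101 and 170.3 CPM after stroke against 63.0 and 52.7 CPM at steady state (1.12, adjusted p = 0.0181). Cxcr2 was also higher in the rest of marrow, at 90.5 and 90.2 CPM without TMM scaling after stroke against 48.8 and 45.1 CPM at steady state. Itgb1, the integrin beta 1 chain, had 197 and 232 CPM after stroke against 101 and 89.2 CPM at steady state (1.15, adjusted p = 0.004; 1.03 beyond the rest). Cd200r1, an inhibitory receptor, rose by 1.61, Ptger3, a prostaglandin E2 receptor, by 1.64, and C5ar1, the receptor for complement C5a, by 1.93 from low counts. C5ar1 passed the filter on low counts only through the stroke libraries. The exception was Itga4, the integrin alpha 4 chain of progenitors, which fell by 0.82 (adjusted p = 0.024).

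Genes of the granule and of IgE signalling moved less. In the granule list 2 of 12 were higher and 1 lower (median 0.24), against 7.34% and 2.33% of all genes. Hdc, the enzyme that makes histamine, had 497 and 734 CPM in aged and young marrow after stroke, against 270.0 and 287 CPM at steady state (1.11, SE 0.21, edgeR adjusted p = 0.00506). The lysosomal proteases Ctsd (0.87) and Ctsb (-0.92) moved in opposite directions. Cpa3 did not pass (0.43, adjusted p = 0.423). Of the 4 mast cell markers tested 1 was higher, Cma1 (2.03, adjusted p = 0.0283), which rests on the 7 cells described above and on 0 counts in both young libraries. Of the 39 Cma1 UMIs of aged marrow after stroke, 36 came from 1 cell (92.3%), and the 15 of aged marrow at steady state came from 3 cells. Of 18 IgE receptor signalling genes 2 were higher and 0 lower (median 0.34), against 7.34% of all genes called higher, namely the adaptor Lat2 (1.0) and the kinase Lyn (0.84). Lyn was also higher in the rest of marrow, where it had 149 and 184 CPM without TMM scaling in aged and young marrow after stroke. At steady state it had 93.3 and 94.9 CPM there. Of 6 lipid mediator genes 2 were higher, namely Alox5ap, which activates leukotriene synthesis (1.5, adjusted p = 0.00134), and Alox15 (1.19, adjusted p = 0.00867).

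Receptors and transcription factors split in both directions. Of 18 cytokine receptor genes 4 were higher and 2 lower (median 0.49), against 7.34% and 2.33% of all genes. Il7r, the receptor chain shared by interleukin-7 and TSLP, had 49.3 and 118 CPM in aged and young marrow after stroke, against 14.4 and 11.2 CPM at steady state (2.48, SE 0.37, edgeR adjusted p = 0.00102). Its partner for TSLP, Crlf2, rose by 0.72, and Csf2rb2, the interleukin-3 receptor beta chain of mice, by 1.30. The receptors of other myeloid lineages fell, namely Csf1r of monocytes by 2.88 and Csf3r of neutrophils by 1.40. Of 23 transcription factor genes 4 were higher and 3 lower (median -0.18), against the same 7.34% and 2.33% of all genes. Cebpa, a factor of granulocyte commitment, had 426 and 471 CPM after stroke against 137 and 182 CPM at steady state. The groups did not overlap (1.51, SE 0.20, adjusted p = 0.000424), and the difference was also called in the high-protease members (1.16). Nfil3 rose by 1.61, Spi1 by 0.89 and Cebpb by 0.75. In the rest of marrow, Cebpb had 256 and 309 CPM without TMM scaling in aged and young marrow after stroke, against 131 and 132 CPM at steady state. Spi1 had 295 and 324 CPM there after stroke, against 218 and 213 CPM at steady state. In members, Cebpe fell by 2.60, Zfpm1, the GATA cofactor FOG1, by 1.57, and Myb, a factor of progenitors, by 0.80. Gata2 did not pass (0.41, adjusted p = 0.293), but stood 1.41 beyond the rest, where it was lower after stroke (-1.03).

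Cell cycle and progenitor genes were lower or not called. Of 32 cell cycle genes 0 were higher and 4 lower (median -0.50, with 1 gene above 0), against 7.34% and 2.33% of all genes. Mcm7, a subunit of the replicative helicase, had 48.2 and 108 CPM in aged and young marrow after stroke, against 168 and 183 CPM at steady state (-1.32, SE 0.26, edgeR adjusted p = 0.00706). Mcm5 fell by 1.25, Rrm1, a subunit of ribonucleotide reductase, by 1.05, and Mki67 by 0.85, and of the 32 genes 1 was called down beyond the rest. Of 8 stem and early progenitor genes 1 was lower, Sox4 (-0.74, adjusted p = 0.0451), and 0 of the 8 lay above 0 (median -0.70). Kit (-0.48, adjusted p = 0.217) and Cd34 (-0.65, adjusted p = 0.125) did not pass.

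Transcripts typical of other lineages were among those that fell furthest. Among genes that averaged 20 CPM or more over the libraries, the 3 largest drops were those of the eosinophil granule genes Prg3 (-5.53), Epx (-4.76) and Prg2 (-4.30), which rest on the 12 cells described above and on counts of 0 in young marrow after stroke. Elane had 93.2 and 21.7 CPM in aged and young marrow after stroke, against 841 and 444 CPM at steady state (-3.47, SE 0.27, edgeR adjusted p = 1.02e-05). After thinning, Elane was found in 13.5% and 7.41% of aged and young members after stroke, against 32.5% and 33.8% at steady state. Neutrophil-granule cells had a similar drop, from 29.0% and 32.1% in aged and young marrow at steady state to 11.3% and 7.44% after stroke. Of the 8 neutrophil granule genes tested that the rule does not limit, 2 were lower (Elane, and Mpo at -1.44) and 1 was higher (Lcn2 at 0.92), with a median of -0.0083. Of all genes, 2.33% were called lower and 7.34% higher. Mpo was found after thinning in 54.05% and 18.5% of aged and young members after stroke, against 82.8% and 84.6% at steady state. In neutrophil-granule cells Mpo was found in 7.26% and 6.15% after stroke, against 26.6% and 31.2% at steady state. Of 11 monocyte genes 4 were lower and 0 higher (median -1.15), with Fn1 at -3.44, Ly6c2 at -2.37 and F13a1 at -1.84. Cybb, the oxidase subunit of phagocytes (-3.99), the chemokine Ccl5 (-3.49), the interferon-stimulated gene Ifi27l2a (-2.72) and lysozyme, Lyz2 (-2.59), complete the named genes beside Cebpe. In the rest of marrow the log2 fold change of Lyz2 was 0.03. The part of free RNA or of cells of other lineages in these differences was not tested.

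The 10 genes named for the largest rise included several that differed as much in the rest of marrow. Fosb, an immediate early factor, had 14.2 and 80.5 CPM in aged and young marrow after stroke, against 0 and 2.03 CPM at steady state, with a log2 fold change of 5.45 that depends on the low steady-state counts (SE 0.68, edgeR adjusted p = 0.000284). Defb40, a beta-defensin gene, had 73.5 and 142 CPM after stroke against 2.74 and 3.04 CPM at steady state (5.07, SE 0.38, adjusted p = 8.48e-06). The others were Gm14173 (6.47), Gm10736 (5.61), Atp5g2 (5.19), Rpl6l (4.69), Tpt1-ps3 (4.63), Gstp1 (4.16), Gm3699 (4.02) and Ftl1 (4.01). Gm10736, Gstp1 and Ftl1 changed as much in the rest of marrow, by 5.75, 4.25 and 4.33, and counts of such genes can be split between copies.

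In 3 further lists the genes that passed were higher after stroke. Of all genes, 7.34% were called higher and 2.33% lower. Of 26 immediate early and dissociation genes listed, 18 were tested, and 8 were higher and 0 lower (median 1.15, against 0.81 in the rest of marrow). Fos had 31.8 and 146 CPM in aged and young marrow after stroke, against 4.11 and 7.09 CPM at steady state (3.75, SE 0.41, edgeR adjusted p = 0.00012). Fos and Fosb passed the filter on low counts only through the stroke libraries. The counts of this list and its median include such genes and are a description. Of 11 glucocorticoid-responsive genes 4 were higher and 0 lower (median 1.04), among them Txnip, an inhibitor of thioredoxin (2.01), and Tsc22d3, which encodes GILZ (1.97). Of 6 class II genes 4 were higher and 0 lower (median 1.81), with H2-Aa at 129 and 294 CPM after stroke against 5.48 and 60.8 CPM at steady state (3.02, edgeR adjusted p = 0.000239). These levels rest on single cells. In aged and young marrow after stroke, 1 cell held 94.92% and 98.95% of the H2-Aa UMIs, and 97.49% and 97.79% of those of Cd74. H2-Aa was detected in 6 of 80 and 2 of 32 members after stroke, against 7 of 157 and 8 of 136 at steady state. Whether handling of the tissue, which moves immediate early genes, contributed to the signal genes was not tested. Of 12 interferon-stimulated genes 0 were higher and 2 lower (median -0.03).

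**Figure D5:**
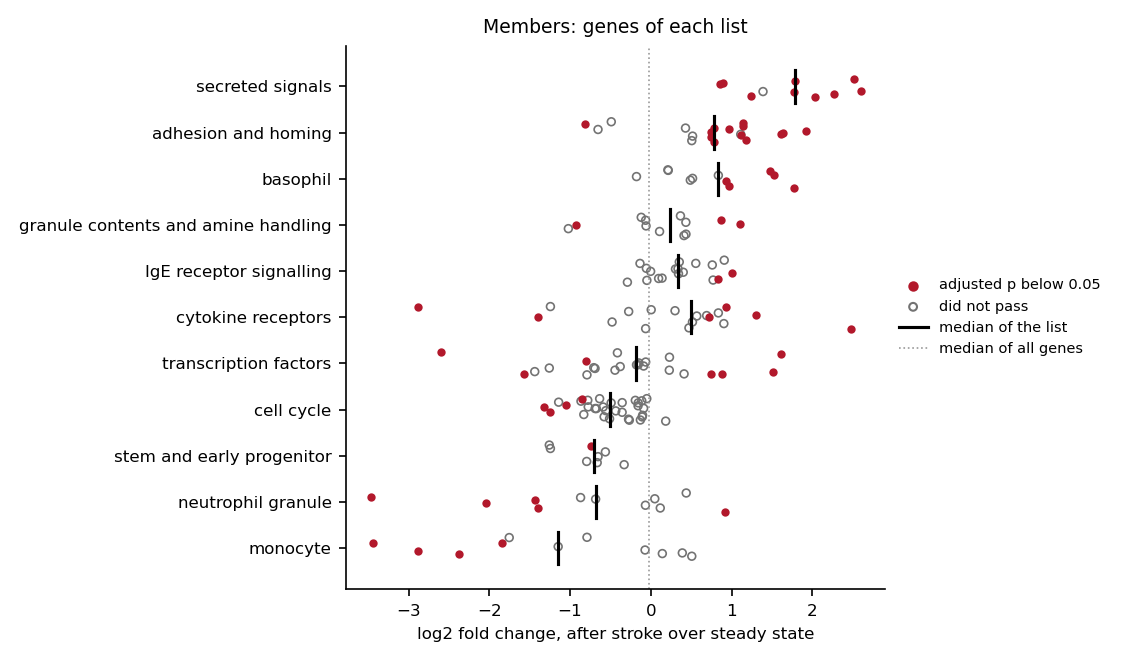
Log2 fold changes of members after stroke against steady state, 1 point per gene tested, for 11 gene lists, rule genes included, with the list median and the genes that passed the test marked. The medians run from 1.78 for secreted signals to -1.15 for monocyte genes, and the dotted line marks the median of -0.02 over all genes.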

How the data were processed

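The file the authors deposited holds UMI counts of each gene in each cell, neither scaled nor transformed, for cells that had passed the authors' own filters, and each barcode is labelled with its library. Per the submitters' processing notes, STAR 2.5.3a, featureCounts 1.6.4 with Subread, UMI-tools, Cell Ranger 3.0.2 and GRCm38 (mm10) were used, with the part of each not given in the sources used here. Members and gene lists were chosen with earlier results of these data known. From the deposited counts, member UMIs were summed per library and tested with edgeR 4.0.16 (TMM scaling, filterByExpr, quasi-likelihood; R 4.3.3, limma 3.58.1), with context and age as additive terms. DESeq2 1.42.0 was an alternative. The procedure was tested on simulated data.

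Named were list genes, up to 10 called genes per direction averaging at least 20 CPM, and, below 8, uncalled genes averaging at least 50 CPM whose pair ratios shared a sign and left out 0. The 15 genes furthest above the rest were also named. Shares have exact binomial intervals. Doublets were scored with scanpy 1.11.5 (Python 3.11.15). A floor of 3 counts bounds a share of 0. Blood was left out of the tests because the rule applies to marrow.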

Additional observations from a re-analysis of the deposited data

Results flagged for a closer look

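Some genes had age ratios that pointed opposite ways in the 2 contexts, with counting intervals that leave out 0 in both. These are log2 ratios of aged over young members, and the difference between contexts was not tested. Ccl6, a chemokine, stood at -1.34 after stroke and 1.09 at steady state. Itgb7, an integrin chain of mast cell progenitors, stood at -0.93 after stroke and 0.73 at steady state. Mcm2, a replication gene, stood at -1.14 after stroke and 0.53 at steady state, and Prtn3, an early granule protease, at -0.91 after stroke and 0.64 at steady state. S100a8, a calcium-binding protein of neutrophils, stood at -0.81 after stroke and 0.53 at steady state, and Tsc22d3, a glucocorticoid target, at -1.08 after stroke and 0.71 at steady state.

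The log2 ratio of stroke over steady state likewise pointed opposite ways by age for H2-DMa, a class II chaperone, at -0.76 in aged and 0.60 in young members, and for S100a9, the partner of S100a8, at -0.56 in aged and 0.80 in young members. S100a8 and S100a9 were carried mainly by few members, 5 and 3 cells in aged and young marrow after stroke and 18 and 10 at steady state, which held between 71.15% and 94.98% of their UMIs.

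Cells of the lineage also appeared in blood, which the comparisons did not use. The same rule found 19 of 5342 cells in aged blood (0.356%, 95% interval 0.214 to 0.555%), against 0 of 2029 cells in young blood, which allows a share of up to 0.148%. The blood cells had been sorted differently from marrow, and the sort helps to set these shares.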

How the results depend on the processing

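The lineage's share of marrow cells was 2.08%, and 1.75% with at least 10 CP10k of the rule genes, 1.66% with at least 3 of the 4 genes and 2.69% of the cells under the granule limit. The dividing share was 58.9% over all members, 64.3% in members with at least 100 CP10k of the proteases and 82.5% without thinning. The mast protease share, which rests on Cma1 alone, was 0.508% (2 cells). It was 0.258% without doublets and 0.303% with at least 10 CP10k (1 cell each), and 0 in the high-protease members.

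The count of genes called by age was 1. It was 0 with at least 10 CP10k, with at least 2000 UMIs, with DESeq2 size factors, with the DESeq2 Wald test and without eosinophil-granule cells. It was 10 without doublets, 15 in high-protease members, 16 for the difference from the rest of marrow, 18 with at least 3 genes, 22 with a granule limit of 20 CP10k, 23 without a count filter and 35 without S100-rich cells. The count called by stroke was 831, and 477 with at least 10 CP10k, 246 with the DESeq2 Wald test, 515 in high-protease members, 361 for the difference from the rest and 1255 without S100-rich cells. Under the other 7 settings it lay between 555 and 1171. The settings differed in the genes tested, so these counts and those by age are not shares of the same set. The genes tested numbered 8594 in the main fit, 8159 with at least 10 CP10k, 6326 in high-protease members and 17562 without a count filter. In the DESeq2 Wald test 5428 genes had an adjusted p by stroke and 8594 by age. The share of calls that were higher was 75.9%, and 91.5% with the DESeq2 Wald test. The cause of these shifts was not tested.

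Of 99 list or named genes called by stroke, 0 reversed under any setting. The call was lost for 55 with the DESeq2 Wald test, 35 in high-protease members (13 more could not be fitted), 33 with at least 10 CP10k, 21 without eosinophil-granule cells and 16 with at least 2000 UMIs, and for 7 or fewer under the others. The settings on eosinophil-granule, S100-rich and high-protease cells and the difference from the rest were chosen after seeing the data. No paired analysis was possible because each group has 1 library, and leaving out a library leaves no residual degree of freedom. The 32 members of young marrow after stroke limit the precision of every comparison.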

Other observations

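In the 19 cells of aged blood that met the rule, the progenitor genes Kit, Cd34 and Mpo had 0 UMIs, which allows up to 26.7 CPM each (exact 95% interval), above the 15.3 CPM of Kit in the marrow members with the most protease, and Mki67, a gene of dividing cells, had 1 UMI. Prss34 also had 0 UMIs, against 16343 to 26717 CPM in marrow members, while Mcpt8 stood at 797 CPM. Cd200r3 was at 964 CPM, Cyp11a1 at 833.5 CPM and Gata2 at 1109 CPM. Ccl3 was at 2566 CPM, above the 703 CPM of its highest marrow library on the TMM scale, and Ifitm1 at 5349 CPM. Il4 was at 239 CPM and Hdc at 1573 CPM. These are levels of 19 cells of 1 library, chosen by Mcpt8, Prss34, Ms4a2 and Fcer1a, and were not tested.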
